A study of Mus musculus with 8 samples.

Results

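The Bcl2 family genes followed here are Bcl2, Bcl2l1, Mcl1, Bcl2l11, Bax, Bak1, Bid, Bbc3, Pmaip1 and Bad. Every probe set whose only gene symbol in the platform annotation was one of these names was taken, which gave 29 of the 45037 probe sets analysed, for 9 of the 10 genes. Bcl2l11 and Bcl2 had 5 probe sets each, Mcl1 had 6, Bcl2l1 had 4, Bid had 3, Bak1 and Bad had 2 each, and Bbc3 and Pmaip1 had 1 each. Bax was the symbol of no probe set in the annotation used and is not analysed here. RNA from mouse spleen and lymph node was hybridised to 8 Affymetrix arrays, 2 each of spleen from Aire knockout, spleen from Aire wild-type, lymph node from Aire knockout and lymph node from Aire wild-type mice. Aire encodes the autoimmune regulator, which drives the display of tissue antigens in the thymus, and the study asked about cells that express it elsewhere. Each array's label holds its tissue, its genotype and either A or B. The sources used here do not give strain, age, the Aire allele, any sorting of cells or the number of mice per array.

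Proteins of this family decide whether the outer mitochondrial membrane is opened in a cell under stress. Bcl2, Bcl-xL (from Bcl2l1) and Mcl1 hold the pore-forming proteins Bax and Bak in check, and the BH3-only proteins Bim (from Bcl2l11), Bid, Puma (from Bbc3), Noxa (from Pmaip1) and Bad release that check or activate the pore formers directly. In lymphoid tissue the family is known for the deletion of self-reactive lymphocytes, in which Bim is the leading trigger, and for setting the lifespan of lymphocytes and dendritic cells.

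The 250 bases upstream of the annotated start are shown for the 3 genes with the largest differences between knockout and wild-type spleen among the members, Bid, Bcl2 and Bcl2l11. They were picked after those values were seen. Each sequence runs 5′ to 3′ on the strand of its gene, is taken from RefSeq on GRCm38.p6, and has in capitals the letters that match a searched motif. Bid lies on the minus strand at chr6:120916825-120917074, Bcl2 on the minus strand at chr1:106714291-106714540, and Bcl2l11, by the first of its 2 annotated starts, on the plus strand at chr2:128125788-128126037.
Bid: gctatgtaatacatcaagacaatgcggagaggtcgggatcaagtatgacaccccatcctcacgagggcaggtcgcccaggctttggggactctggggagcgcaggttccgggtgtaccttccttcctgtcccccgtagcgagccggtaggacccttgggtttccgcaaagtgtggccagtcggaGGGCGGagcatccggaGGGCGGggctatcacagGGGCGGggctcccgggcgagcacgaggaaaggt
Bcl2: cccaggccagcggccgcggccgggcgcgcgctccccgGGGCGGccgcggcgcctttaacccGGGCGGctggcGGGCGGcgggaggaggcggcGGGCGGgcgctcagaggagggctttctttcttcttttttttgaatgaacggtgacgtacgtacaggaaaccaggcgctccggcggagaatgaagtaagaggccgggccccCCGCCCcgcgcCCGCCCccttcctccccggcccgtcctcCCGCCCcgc
Bcl2l11: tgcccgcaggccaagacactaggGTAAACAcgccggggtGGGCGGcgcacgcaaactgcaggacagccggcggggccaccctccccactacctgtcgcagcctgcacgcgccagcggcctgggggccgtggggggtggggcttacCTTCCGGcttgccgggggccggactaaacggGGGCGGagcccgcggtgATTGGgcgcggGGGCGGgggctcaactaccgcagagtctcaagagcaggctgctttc

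Motifs were searched on both strands for 5 factors or elements. SP1 was read as GGGCGG, FOXO as GTAAACA, ETS as CCGGAAG, NFY as CCAAT and the TATA box as TATAAA. Bid held 3 matches of GGGCGG and Bcl2 held 7, and neither held another of the motifs. Bcl2l11 held 3 matches of GGGCGG and 1 match each for FOXO, ETS and NFY, none overlapping another. Among all 32851 promoters of the same length, GGGCGG was found in 32.7%, GTAAACA in 3.17%, CCGGAAG in 6.91%, CCAAT in 33.8% and TATAAA in 12.4%. The G and C content was 63.6% in Bid, 74.8% in Bcl2 and 72.0% in Bcl2l11, against a median of 52.4% over all promoters, and the CpG count was 18, 36 and 24 in these 3 windows against a median of 6. A match describes these letters and is not a measured binding site.

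Signals are given on a linear scale after each array was shifted to a common median of 59.0. A floor was set at 9.58, the 20th percentile. A probe set was tested if its signal passed 59.0 on at least 2 arrays. This kept 26479 probe sets, among them 25 of the 29 members, and left out 2 of Bcl2, 1 of Bid and the only one of Bbc3. Differences are knockout minus wild-type on the log2 scale, from limma with Benjamini-Hochberg adjustment over all 26479, and a difference passed at an adjusted p under 0.05. A gene's representative is its probe set with the highest mean. The labels do not say whether arrays within a group are from different animals, so each p reflects the spread among these arrays alone, which may be technical.

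The arrays stood apart in ways that the groups do not name. Aire itself was lower on all 4 knockout arrays, at 1009 and 2376 in knockout spleen against 5037 and 5204 in wild-type spleen, and at 791 and 1137 in knockout lymph node against 3052 and 3535 in wild-type lymph node; the averaged difference of -1.76 did not pass (limma adjusted p = 0.319). Spleen knockout array A carried a summed signal of 8645 over 3 neutrophil genes and 10884 over 5 plasma cell genes, against 127 and 965 on spleen knockout array B. Xist was at 14.6 and 23.1 on the knockout B arrays and between 3565 and 7624 on the other 6. Kdm5d, a gene of the Y chromosome, was at 560 and 799 on the same 2 knockout B arrays, and at 11.1 and 20.9 on the wild-type A arrays. The knockout A and wild-type B arrays carried both Xist and Kdm5d. Within each genotype the spleen and lymph node arrays of 1 letter thus had the same pattern of these genes. The labels do not say whether such arrays share a mouse or pool, so values averaged over tissues may not come from independent samples. Cd79a of B cells had signals of 33.8 to 435 and Cd3e of T cells 23.0 to 369, although these cells make up most of both tissues. Other T cell genes reached higher, with Thy1 at 109 to 1949, Cd8a at 101 to 1030 and Cd4 at 20.1 to 844. Lower ones were Cd3d at 25.3 to 101 and Cd3g at 24.3 to 65.9. On the dendritic cell list Ccr7 had signals of 8241 to 14752, Fscn1 9491 to 12476, H2-Ab1 7917 to 11082 and Zbtb46 2054 to 3591. Flt3 had 332 to 641, Itgax 77.2 to 282 and Xcr1 1.65 to 52.1. The spleen stroma genes summed to between 61.2 and 140, with 2 of the 3 at or under the floor on at least 4 arrays.

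In knockout spleen no member passed. Both tested Bid probe sets and 1 of the 3 tested for Bcl2, its representative, had higher signals on both knockout arrays than on either wild-type array, and 4 of the 5 Bcl2l11 probe sets had lower ones. Of the 25 tested member probe sets 10 were higher and 15 lower by their fitted difference, with a median of -0.12 against -0.11 over all probe sets tested. By limma 0 members passed, the lowest adjusted p being 0.289, where 2 of all probe sets passed (0.00755%). At an unadjusted p under 0.05 there were 3 members, where the background was 7.9%. Knockout and wild-type spleen did not overlap in 13 member probe sets, or 52%, where the background was 36.5%. Of these 4 were higher in knockout against a background of 13%, and 9 were lower against a background of 23.5%. Probe sets of 1 gene share their transcript, and 7 of the 13 belong to Mcl1 and Bcl2l11. Bid 1448560_at, 1 of the 4 higher ones, came through the filter only by way of knockout arrays.

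**Figure D1:**
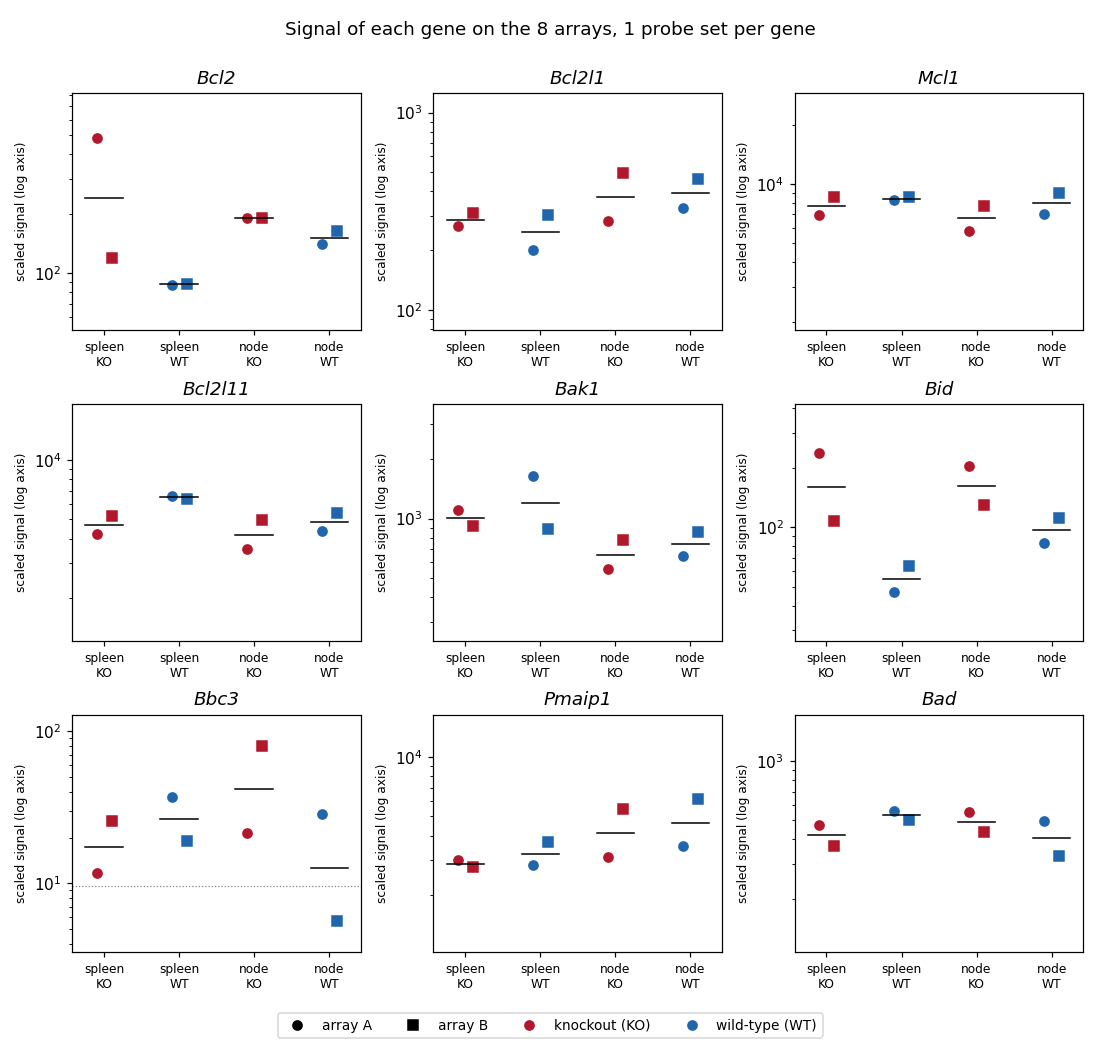
Scaled signal (log axis) of the representative probe set of each of the 9 measured genes on each of the 8 arrays, knockout left of wild-type within each tissue, circles for array A and squares for array B; horizontal lines are group means of log2 signals and the dotted line, where it falls in the panel, is the floor of 9.58. Bid is higher on both knockout arrays than on either wild-type array in spleen and in lymph node, while Mcl1, Pmaip1 and Bak1 overlap between genotypes in both tissues.

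Bid encodes the BH3-only protein that caspase 8 cleaves to carry a death receptor signal to the mitochondrion. Its representative, 1417045_at, had signals of 237 and 108 in knockout spleen, against 47.0 and 63.5 in wild-type spleen. Lymph node gave 204 and 129 on knockout arrays, against 83.6 and 111 on wild-type arrays. The knockout arrays were the higher ones in both tissues, with no overlap, and array A was the highest of each knockout pair. The difference was 1.55 in spleen (SE 0.49, 95% interval 0.39 to 2.70, 2.93-fold), which did not pass (limma adjusted p = 0.538). In lymph node it was 0.75 (SE 0.49, interval -0.40 to 1.91; limma adjusted p = 1). In order, the group means of log2 signal put both knockout groups first, then wild-type lymph node, then wild-type spleen; the 2 knockout groups overlapped.

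A second Bid probe set, 1448560_at, gave 103 and 86.6 in knockout spleen, against 11.1 and 20.8 in wild-type spleen, both near the floor. Lymph node gave 62.9 and 59.6 on knockout arrays, against 33.4 and 53.7 on wild-type arrays. Its spleen difference of 2.64 (SE 0.43, interval 1.61 to 3.66, 6.21-fold) had the lowest p among the members, unadjusted p = 0.000491 by limma, and did not pass after adjustment (adjusted p = 0.289). With the floor raised to the 40th percentile this difference was 1.43. It was 2.51 without spleen knockout array A and 2.76 without B, while that of 1417045_at was 0.98 without A and 2.12 without B. This probe set came through the filter only by way of its 4 knockout arrays, so its higher knockout signal was in part required by the choice of probe sets to test. The third Bid probe set, 1447873_x_at, was too dim to be tested, at 11.7 and 35.0 in knockout spleen against 9.27 and 17.6 in wild-type spleen, and at 32.0 and 21.8 in knockout lymph node against 13.8 and 3.11 in wild-type lymph node.

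Proliferation and macrophage markers were among those highest on the same arrays as Bid, the knockout A arrays. The 8 proliferation genes summed to 7756 and 2191 in knockout spleen against 2272 and 1453 in wild-type spleen, and to 3826 and 1967 in knockout lymph node against 1990 and 1567 in wild-type lymph node. The 9 macrophage genes summed to 13134 and 3406 in knockout spleen against 4635 and 4323 in wild-type spleen, and to 8114 and 4155 in knockout lymph node against 4640 and 3149 in wild-type lymph node. Most of the proliferation sum came from Mki67, and both sums overlapped between the genotypes in each tissue. The mean log2 signal over each list, which weights its genes equally, did not overlap and was higher in knockout, as Bid was, though by a narrow margin for macrophages in lymph node. For proliferation it was 8.83 and 7.14 in knockout spleen against 6.26 and 6.42 in wild-type spleen, and 8.20 and 7.13 in knockout lymph node against 6.71 and 5.64 in wild-type lymph node. For macrophages it was 9.17 and 7.26 in knockout spleen against 6.76 and 5.85 in wild-type spleen, and 8.60 and 7.22 in knockout lymph node against 7.21 and 6.29 in wild-type lymph node. Singly, 6 of the 8 proliferation genes in spleen and 5 of the 8 in lymph node were higher in knockout without overlap. For the macrophage genes it was 5 of the 9 in spleen and 3 of the 9 in lymph node. The background was 13% in spleen and 14% in lymph node. Of the 9 macrophage genes 2 had a fitted difference below 0 in each tissue. Of these Spic did not overlap in lymph node (background 15.7%), with 634 and 1048 in knockout against 1314 and 1544 in wild-type. Bub1, among the proliferation genes counted in both tissues, came through the filter only by way of knockout arrays. The same held for the macrophage genes Adgre1, Siglec1 and Cd5l. The knockout A arrays also had the highest B cell sums, 1864 in spleen and 865 in lymph node against at most 487 on any other array. The same held for the T cell sums, 3976 and 2527 against at most 1932. None of these markers was at the floor on all arrays, and their part in the Bid values was not tested. In RNA from mixed cells, more cells of a type and more RNA per cell cannot be told apart.

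**Figure D2:**
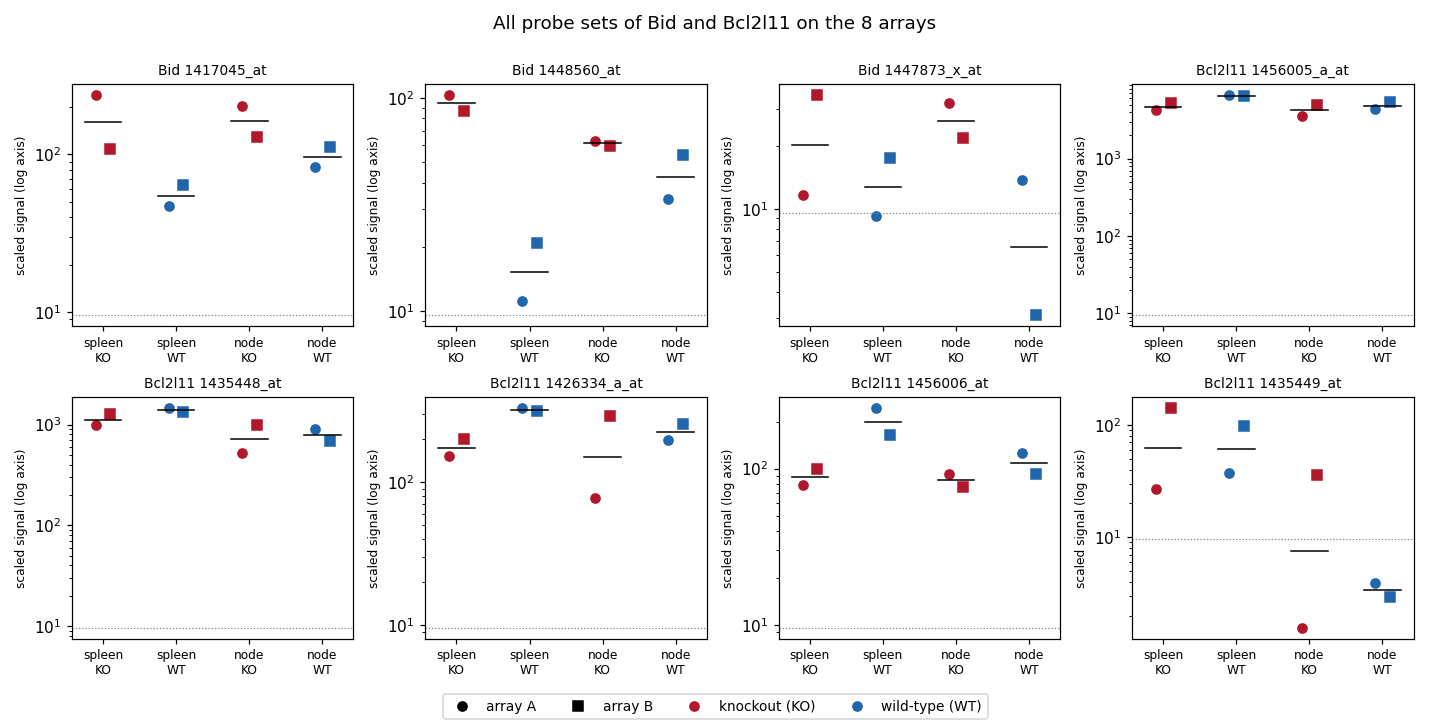
Scaled signal (log axis) of the 3 probe sets of Bid and the 5 of Bcl2l11 on the 8 arrays, knockout left of wild-type within each tissue, circles for array A and squares for array B, horizontal lines for group means of log2 signals and a dotted line at the floor of 9.58. In spleen both tested Bid probe sets are higher on both knockout arrays than on either wild-type array, and 4 of the 5 Bcl2l11 probe sets are lower. Bid 1448560_at came through the filter only by knockout arrays.

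Bcl2 encodes the founding survival protein of the family, which lymphocytes need to persist. Its representative, 1422938_at, had signals of 482 and 119 in knockout spleen, against 87.3 and 88.5 in wild-type spleen. In lymph node it had 191 and 190 on knockout arrays, against 140 and 163 on wild-type arrays. Knockout was the higher genotype in both tissues without overlap, and spleen knockout array A was far above the other 7. The spleen difference was 1.45 (SE 0.62, interval -0.01 to 2.91) and did not pass (limma adjusted p = 0.636). It was 0.44 without spleen knockout array A and 2.45 without B, so 1 array set most of its size. In lymph node the difference was 0.34 (SE 0.62; limma adjusted p = 1).

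The other tested Bcl2 probe sets followed the array letter. Probe set 1457687_at had 115 on array A and 3.23 on array B of knockout spleen, against 54.2 and 2.85 in wild-type spleen. In lymph node it had 90.2 and 33.1 on the knockout arrays, against 76.5 and 41.0 on the wild-type arrays. Probe set 1440770_at had 134 and 4.43 in knockout spleen against 104 and 3.23 in wild-type spleen, and 74.9 and 20.2 in knockout lymph node against 60.2 and 1.97 in wild-type lymph node. Array A was thus above array B in all 4 groups for both, and the genotypes overlapped in both tissues. Both probe sets came through the filter only by way of A arrays, so this order was in part required by the choice of probe sets to test. Over all 26479 probe sets tested, A was above B in all 4 groups in 6.84%, and among the 25 members in 3, the other being Bad 1416582_a_at. Summed over 5 B cell genes, the signal was 1864 and 177 in knockout spleen against 487 and 331 in wild-type spleen, and 865 and 282 in knockout lymph node against 466 and 191 in wild-type lymph node. It too was higher on array A in every group, as were the macrophage, proliferation, plasma cell and neutrophil sums. Within the B cell list Cd79a went the other way in wild-type, with 128 on A and 171 on B in spleen and 41.0 and 46.6 in lymph node. In wild-type spleen so did Ms4a1, with 44.1 on A and 58.0 on B, and Cd22, with 5.71 and 27.4. The sum there was carried by Pax5, with 152 on A and 7.25 on B, and Cd79b, with 157 and 67.6. The part of these genes in the Bcl2 values was not tested. The remaining 2 Bcl2 probe sets stayed between 1.41 and 45.5 on all arrays and were not tested.

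**Figure D3:**
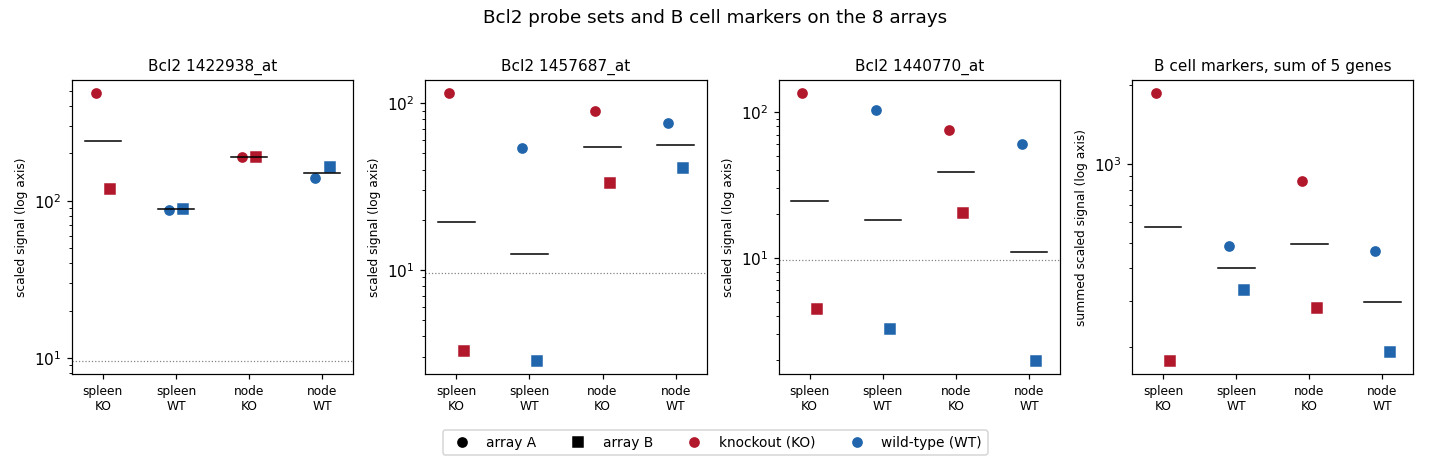
Scaled signal (log axis) of the 3 tested Bcl2 probe sets and the summed signal of 5 B cell genes on the 8 arrays, knockout left of wild-type within each tissue, circles for array A and squares for array B, horizontal lines for group means of log2 signals and a dotted line at the floor of 9.58. Circles lie above squares in all 4 groups for 1457687_at, 1440770_at and the B cell sum, and not for 1422938_at. Probe sets 1457687_at and 1440770_at came through the filter only by A arrays.

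Bcl2l11 encodes Bim, the BH3-only protein that starts the death of self-reactive lymphocytes. Its representative, 1456005_a_at, had signals of 4231 and 5190 in knockout spleen, against 6604 and 6371 in wild-type spleen. Lymph node arrays gave 3529 and 4982 in knockout, against 4361 and 5383 in wild-type. Both knockout spleen arrays lay under both wild-type spleen arrays, and in lymph node the genotypes overlapped. The difference was -0.47 in spleen (SE 0.35, interval -1.30 to 0.36; limma adjusted p = 0.798) and -0.21 in lymph node (SE 0.35; limma adjusted p = 1), neither of which passed.

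Further Bcl2l11 probe sets also lay lower in knockout spleen. Probe set 1456006_at had 78.4 and 99.6 in knockout spleen against 244 and 163 in wild-type spleen, and 92.4 and 76.7 in knockout lymph node against 126 and 93.0 in wild-type lymph node. It was the only Bcl2l11 probe set without overlap in both tissues. Its spleen difference was -1.18 (SE 0.38, interval -2.07 to -0.28, 2.26-fold lower), with unadjusted p = 0.0170, and did not pass (limma adjusted p = 0.548). Its lymph node difference was -0.36 (SE 0.38; limma adjusted p = 1). Probe set 1426334_a_at had 152 and 199 in knockout spleen, against 330 and 314 in wild-type spleen. Probe set 1435448_at had 980 and 1265 in knockout spleen, against 1459 and 1327 in wild-type spleen. The fifth, 1435449_at, overlapped, at 27.1 and 141 in knockout spleen against 37.5 and 97.6 in wild-type spleen. Dendritic cell genes, 7 in all, were also lower in sum in knockout spleen, at 30145 to 34112 against 37430 to 39522 in wild-type spleen, and in knockout lymph node, at 29374 to 32869 against 33087 to 40716 in wild-type lymph node, a sum carried by Ccr7, Fscn1 and H2-Ab1. Their mean log2 signal overlapped in spleen, at 10.07 and 10.48 in knockout against 10.41 and 10.17 in wild-type. In lymph node it was lower without overlap, at 9.93 and 10.24 in knockout against 10.41 and 10.56 in wild-type. Itgax, which encodes CD11c, went the other way in spleen, with 282 and 212 in knockout against 124 and 77.2 in wild-type. In lymph node Itgax overlapped, at 177 and 98.5 in knockout against 269 and 133 in wild-type. The part of the dendritic cell genes in the Bcl2l11 values was not tested.

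Among the other survival genes, the representatives of Mcl1 and Bcl2l1 differed between genotypes by less than their SE. Mcl1, whose short-lived protein guards many myeloid and lymphoid cells, had signals of 6992 and 8586 for its representative, 1437527_x_at, in knockout spleen, against 8272 and 8566 in wild-type spleen. Lymph node gave 5798 and 7714 on knockout arrays, against 7034 and 9044 on wild-type arrays. The genotypes overlapped in both tissues, and the difference was -0.12 in spleen (interval -0.94 to 0.70) and -0.25 in lymph node (interval -1.07 to 0.57), with an SE of 0.35 in each. All 6 Mcl1 probe sets had fitted differences below 0 in both tissues, from -0.32 to -0.07 in spleen and from -0.26 to -0.10 in lymph node, and none passed. In spleen 3 of the 6 did not overlap. The representative of Bcl2l1, 1426191_a_at, had 267 and 309 in knockout spleen against 201 and 304 in wild-type spleen, and 281 and 492 in knockout lymph node against 329 and 463 in wild-type lymph node. Its difference was 0.21 in spleen and -0.07 in lymph node (SE 0.43 each; intervals -0.80 to 1.23 and -1.08 to 0.95). In spleen its other probe sets did not share a direction. Probe set 1420887_a_at had 320 and 236 in knockout against 204 and 208 in wild-type spleen, and 1420888_at had 256 and 255 in knockout against 289 and 272 in wild-type spleen.

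**Figure D4:**
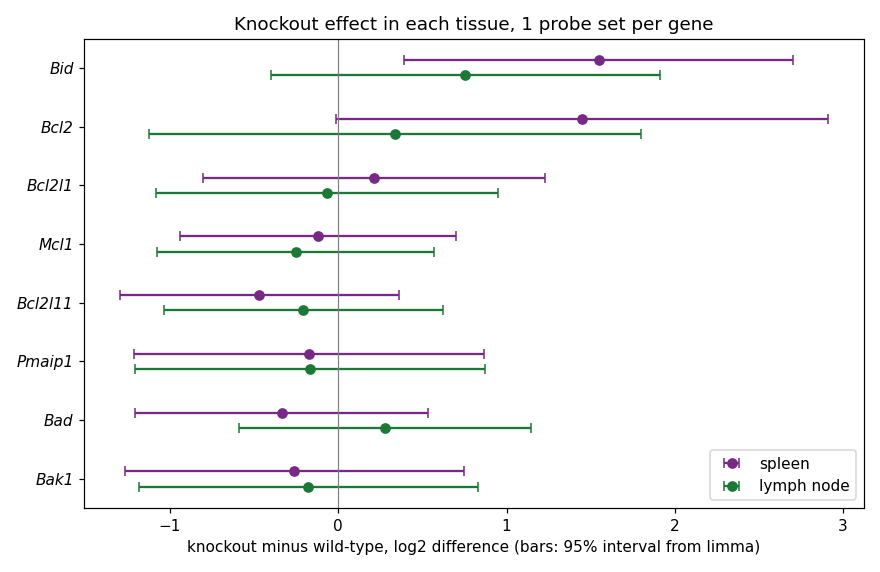
Knockout minus wild-type difference on the log2 scale for the representative probe set of the 8 genes tested, spleen above lymph node, with 95% intervals from limma as bars. The spleen interval of Bid runs from 0.39 to 2.70 and is the only one of the 16 that leaves out 0, and none of the differences passed after adjustment.

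Among the pore former and the remaining BH3-only genes no difference between genotypes passed the test in either tissue. Bak1, the pore former, had signals of 1100 and 911 for 1418991_at in knockout spleen, against 1636 and 882 in wild-type spleen. In lymph node it had 557 and 775 on knockout arrays, against 647 and 855 on wild-type arrays. Its difference was -0.26 in spleen and -0.18 in lymph node (SE 0.43 each). The second Bak1 probe set, 1425716_s_at, had 468 and 504 in knockout lymph node, against 672 and 917 in wild-type lymph node. This was a difference of -0.69 without overlap (SE 0.36, unadjusted p = 0.0921; limma adjusted p = 1). In spleen that probe set overlapped, at 645 and 624 on knockout arrays against 571 and 811 on wild-type arrays.

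Pmaip1 encodes Noxa, a BH3-only protein that binds Mcl1. It had signals of 2992 and 2757 in knockout spleen against 2824 and 3707 in wild-type spleen, and 3131 and 5433 in knockout lymph node against 3526 and 6103 in wild-type lymph node. Its difference was -0.17 in each tissue (SE 0.44), and the genotypes overlapped in both. Bad encodes a BH3-only protein that growth factor signals hold inactive. Its representative, 1416582_a_at, had 475 and 371 in knockout spleen against 556 and 505 in wild-type spleen, and 551 and 438 in knockout lymph node against 497 and 331 in wild-type lymph node. The spleen arrays did not overlap and those of lymph node did, with differences of -0.34 and 0.28 (SE 0.37 each; limma adjusted p = 0.863 and 1). The other Bad probe set, 1416583_at, overlapped in both tissues. Bbc3 encodes Puma, a BH3-only protein induced by p53. Its probe set was dim, at 11.8 and 25.7 in knockout spleen against 36.9 and 19.1 in wild-type spleen, and at 21.5 and 80.5 in knockout lymph node against 28.6 and 5.65 in wild-type lymph node, with overlap in both tissues, and it was not tested.

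In lymph node as a whole, 7 of the 25 member probe sets were higher and 18 lower in knockout, with a median of -0.17 against -0.04 over all probe sets tested. By limma 0 members passed and 0 had an unadjusted p under 0.05, where 0.0113% of all probe sets passed and 2.94% had such a p. Knockout and wild-type did not overlap in 5 member probe sets, 20%, under the background of 29.7%. The 3 higher ones (background 14%) were the representatives of Bcl2 and Bid and Bid 1448560_at, which came through the filter only by way of knockout arrays. The 2 lower ones (background 15.7%) were Bcl2l11 1456006_at and Bak1 1425716_s_at.

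Averaged over both tissues, the Bid representative was higher in knockout by 1.15 (SE 0.35, interval 0.33 to 1.97, 2.22-fold; unadjusted p = 0.0125, limma adjusted p = 0.561), and 1448560_at by 1.58 (SE 0.31; limma adjusted p = 0.332). The averaged difference was 0.89 for the Bcl2 representative (SE 0.44; limma adjusted p = 0.731), -0.34 for that of Bcl2l11 (SE 0.25; limma adjusted p = 0.816), -0.77 for Bcl2l11 1456006_at (SE 0.27; limma adjusted p = 0.633) and -0.19 for that of Mcl1 (SE 0.25; limma adjusted p = 0.922). None passed, where 0.0113% of all probe sets did. The genotypes did not overlap within either tissue, in the same direction, for 4 of the 25 (background 7.9%), namely both tested Bid probe sets and the Bcl2 representative, which were higher (background 2.9%), and Bcl2l11 1456006_at, which was lower (background 5%). For each of these 4 permuting the genotypes inside each tissue (exact permutation test, two-sided) gave p = 0.0556, the smallest that its 36 assignments can give. That value was fixed once the 4 were picked for not overlapping in either tissue, so it adds no support. It also counts spleen and lymph node arrays as separate samples. With the 2 arrays of 1 genotype and letter taken as 1 sample the exact permutation p was 0.333, the smallest that 6 assignments allow and fixed in the same way. Bid 1448560_at had moreover come through the filter by its knockout arrays. At an unadjusted p under 0.05 there were 3 members, where the background was 7.18%. Without both knockout A arrays the averaged difference was 0.70 for the Bid representative and 0.39 for that of Bcl2. Without spleen knockout array A alone that of 1448560_at was 1.52.

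The effect of the knockout was also compared between the tissues. For Bid 1448560_at it was larger in spleen than in lymph node by 2.10 (SE 0.61, interval 0.65 to 3.55; unadjusted p = 0.0109), which did not pass (limma adjusted p = 0.9998). No array of this probe set was at the floor of 9.58, but its lowest signal, 11.1, was near it. With a higher floor, at the 40th percentile, the difference was 0.93 (limma unadjusted p = 0.103). The probe set came through the filter by its knockout arrays. The difference between tissues was 0.79 for the Bid representative (SE 0.69) and 1.11 for that of Bcl2 (SE 0.88), neither with an interval that left out 0. Of all probe sets tested 0 passed in this comparison by limma, and 3.57% had an unadjusted p under 0.05, as did 1 member. In no member probe set did the genotypes separate fully in both tissues in opposite directions (background 3.54%).

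Spleen was then set against lymph node, averaged over genotypes. Of the 25 member probe sets 16 were higher and 9 lower in spleen, with a median of 0.13 against 0.05 over all probe sets tested. By limma 0 members passed, as did 0 of all probe sets, and 3 members had an unadjusted p under 0.05 (background 9.59%). Spleen and lymph node did not overlap within either genotype, in the same direction, for 2 members (background 10.1%). The Bak1 representative was the higher one (background 6.44%), with its spleen arrays above the lymph node arrays of the same genotype in both genotypes. Its difference was 0.65 (SE 0.30, interval -0.06 to 1.36, limma adjusted p = 0.561). The second Bak1 probe set, 1425716_s_at, overlapped and differed by 0.09 (SE 0.25). The lower one (background 3.63%) was Bcl2l1 1426050_at, with 30.6 and 13.5 in knockout spleen and 27.2 and 4.43 in wild-type spleen, against 32.2 and 69.0 in knockout lymph node and 61.7 and 75.3 in wild-type lymph node. This was -1.64 (SE 0.47, unadjusted p = 0.0100; limma adjusted p = 0.367), and the probe set came through the filter only by way of lymph node arrays.

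Bcl2l11 probe sets were all higher in spleen by their fitted difference. Probe set 1435449_at differed by 2.20 (SE 0.67, unadjusted p = 0.0130; limma adjusted p = 0.393), with 3 of its 4 lymph node arrays under the floor, at 1.56 and 35.8 in knockout and 3.91 and 2.94 in wild-type lymph node. It came through the filter only by way of 2 spleen arrays, and the size of its difference depends on the floor. Probe set 1435448_at differed by 0.73 (SE 0.30; limma adjusted p = 0.506), with 520 and 991 in knockout and 905 and 686 in wild-type lymph node, and the representative by 0.29 (SE 0.25; limma adjusted p = 0.772). The tissue difference was -0.52 for both the Bcl2l1 representative (SE 0.30; limma adjusted p = 0.646) and Pmaip1 (SE 0.31; limma adjusted p = 0.653), and 0.15 for the Mcl1 representative (SE 0.25).

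**Figure D5:**
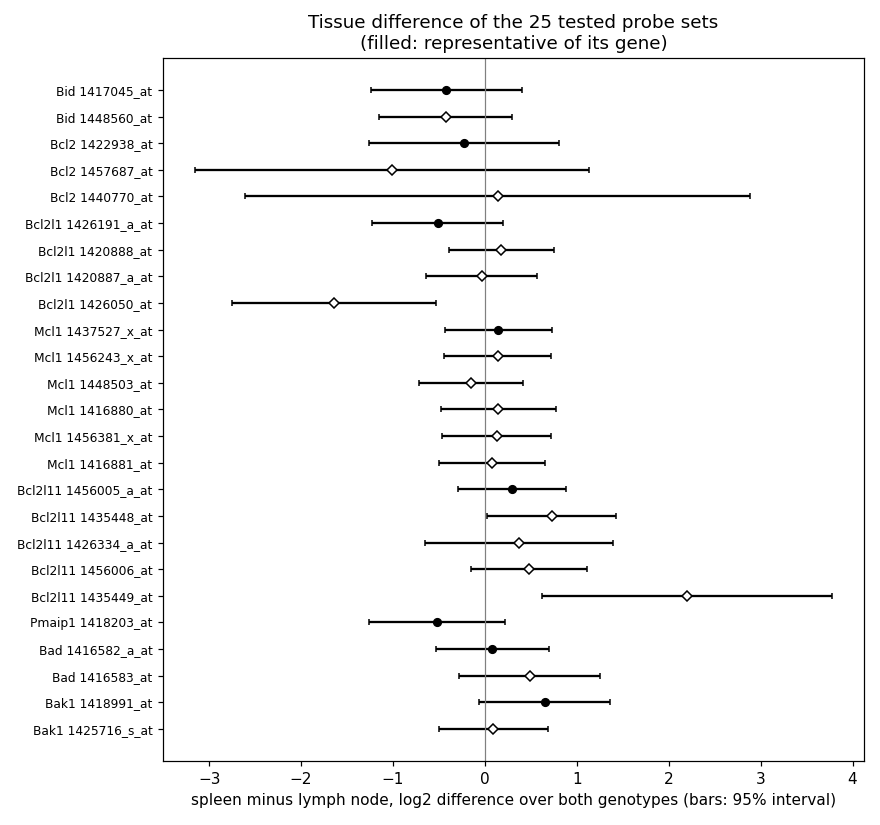
Spleen minus lymph node difference on the log2 scale, averaged over genotypes, for the 25 tested member probe sets, with 95% intervals from limma as bars and filled symbols for the representative of each gene. The intervals of Bcl2l1 1426050_at (-1.64), Bcl2l11 1435449_at (2.20) and Bcl2l11 1435448_at (0.73) leave out 0, and none of the differences passed after adjustment. The first of these came through the filter only by lymph node arrays and the second only by spleen arrays.

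Bid and Bcl2 had the largest range of group means among the tested representatives, 1.57 and 1.45 on the log2 scale. Among the 11549 other genes tested, those whose log2 signals over the 8 arrays were most like Bid by Pearson's correlation were Slc8a1 (0.97), Zfp28 (0.97) and Kcnq5 (0.96). Slc8a1 encodes a sodium and calcium exchanger and Kcnq5 a potassium channel. Those most like Bcl2 were Haus3 (0.97), Elof1 (0.97) and Fbxo5 (0.96), of which Fbxo5 encodes an inhibitor of the anaphase-promoting complex. Fbxo5 had 238 and 39.2 in knockout spleen, against 31.5 and 32.1 in wild-type spleen, and so shared with Bcl2 the high value of spleen knockout array A. All these points share the 8 arrays, and the highest of so many correlations is large by selection.

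Genes that act around the family were counted in 6 lists, 1 representative per gene, and 0 genes of any list passed in either tissue, in the average or between tissues, by limma. Over all probe sets tested, 7.9% had an unadjusted p under 0.05 in spleen and 2.94% in lymph node. The share was 7.18% in the average and 9.59% for spleen against lymph node. Among 8 tested relatives of Bcl2, 3 had an unadjusted p under 0.05 in spleen. Bcl2l13, a mitochondrial relative, had 239 and 268 in knockout spleen against 102 and 129 in wild-type spleen, a difference of 1.14 (SE 0.32; limma adjusted p = 0.495). Bnip3, a BH3-like protein of mitochondrial turnover, had 145 and 73.4 in knockout spleen against 237 and 236 in wild-type spleen, and 182 and 166 in knockout lymph node against 250 and 339 in wild-type lymph node. It was lower without overlap in both tissues, by -0.97 on average (SE 0.30; limma adjusted p = 0.581). Bcl2l12 had 119 and 125 in knockout spleen against 200 and 314 in wild-type spleen, and 220 and 145 in knockout lymph node against 105 and 74.3 in wild-type lymph node, so the genotypes were ordered oppositely in the tissues. The median difference of the 8 was -0.04 in spleen and -0.10 in lymph node, where Bcl2l12 alone had an unadjusted p under 0.05 (difference 1.02, limma adjusted p = 1). For spleen against lymph node 1 of the 8 had such a p, Bcl2l14, which was lower in spleen by -1.17 (SE 0.33, limma adjusted p = 0.362). For the difference between tissues in the knockout effect 2 of the 8 had such a p (background 3.57%).

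Downstream of the mitochondrion, 12 apoptosome and caspase genes had a median spleen difference of -0.04 and a median lymph node difference of 0.00, with 0 at an unadjusted p under 0.05 in either tissue. Casp8, the initiator caspase that cleaves Bid, had 626 and 291 in knockout spleen against 336 and 314 in wild-type spleen, and 408 and 543 in knockout lymph node against 253 and 306 in wild-type lymph node. It overlapped in spleen and lay higher in knockout lymph node, and its averaged difference was 0.58 (SE 0.31; limma adjusted p = 0.753). The 6 inhibitor of apoptosis genes, which restrain caspases, had medians of -0.31 in spleen and 0.12 in lymph node with 0 at an unadjusted p under 0.05. Birc6, a very large ubiquitin ligase of this family, had 2008 and 3222 in knockout spleen against 3441 and 3453 in wild-type spleen (difference -0.44, SE 0.43; limma adjusted p = 0.842). Between tissues 1 apoptosome gene and 0 inhibitor genes had an unadjusted p under 0.05 (background 9.59%). It was Dffb, the nuclease that cuts DNA in dying cells (difference 1.14, SE 0.42, limma adjusted p = 0.466). Dffb had 93.4 and 124 in knockout and 79.9 and 60.2 in wild-type spleen. Lymph node gave 44.4 and 57.3 in knockout and 56.5 and 16.3 in wild-type. Dffb came through the filter only by way of spleen arrays, so its higher spleen signal was in part required by that choice.

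Of 8 death receptor pathway genes, 0 had an unadjusted p under 0.05 in either tissue and 1 did in the average (background 7.18%). This was Traf2, an adaptor of the tumour necrosis factor receptors, with 665 and 779 in knockout spleen against 1057 and 1138 in wild-type spleen, and 353 and 422 in knockout lymph node against 543 and 735 in wild-type lymph node. Its averaged difference was -0.66 (SE 0.24; limma adjusted p = 0.639), with no overlap in either tissue. Between tissues 3 of the 8 had an unadjusted p under 0.05, where the background was 9.59%. Traf2 was higher in spleen by 0.85 (SE 0.24; limma adjusted p = 0.364). The death receptor Fas had 355 and 239 in knockout and 228 and 355 in wild-type spleen, against 483 and 965 in knockout and 497 and 630 in wild-type lymph node, a difference of -1.10 (SE 0.33; limma adjusted p = 0.393). The other was Tnfrsf10b, the receptor for the death ligand Tnfsf10, which was higher in spleen by 0.95 (SE 0.39; limma adjusted p = 0.504).

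The 12 p53 pathway genes had medians of -0.27 in spleen and -0.18 in lymph node. Perp, a p53 target of desmosomes, had 791 and 807 in knockout spleen against 2420 and 1536 in wild-type spleen, and 284 and 631 in knockout lymph node against 530 and 1080 in wild-type lymph node. Its averaged difference was -1.05 (SE 0.38, limma adjusted p = 0.639). It was the 1 gene of the list with an unadjusted p under 0.05 there (background 7.18%), where 0 had one in either tissue. The 5 epithelial genes summed to between 1046 and 1507 in knockout lymph node against 2717 to 2837 in wild-type lymph node, and to between 1588 and 3854 in knockout spleen against 3309 to 4112 in wild-type spleen, and their part in the Perp values was not tested. The 9 mitochondrial partners and turnover genes had medians of -0.06 in spleen and -0.02 in lymph node. Foxo1, a transcription factor that drives Bcl2l11 in lymphocytes, had 564 and 914 in knockout spleen against 460 and 322 in wild-type spleen, and 225 and 393 in knockout lymph node against 415 and 670 in wild-type lymph node.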

How the data were processed

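Total RNA from 8 mouse samples was measured on Affymetrix arrays. The authors deposited intensity values, 1 signal per probe set, made with MAS5 per the submitters' processing notes; the sources used here give no version, target value, detection calls or genome build. The 2% trimmed mean of every array was 250, so the arrays had been scaled before deposition. Of 45101 probe sets 64 controls were left out, and 34945 carried 1 gene symbol, 932 several and 9160 none. Array medians, from 53.8 to 65.3, ranged over 0.28 on the log2 scale, beyond the tolerance of 0.2, so all were brought to 1 median. Signals were raised to the floor, taken to log2 and tested in R 4.3.3 with limma 3.58.1, with a mean per group over all 8 arrays (4 residual degrees of freedom, 3.05 added by the prior). Precision is limited by the number of arrays. Actb and Gapdh 3' to 5' ratios were 1.01 to 1.13 and 2.99 to 4.53. Sequences are from RefSeq, GRCm38.p6. Named genes were all members, up to 3 genes of each list with the smallest p in each comparison, Aire, and the 3 genes most like Bid and Bcl2. The members and lists were chosen with earlier results of these data known. The procedure was tested on simulated data. Alternatives changed the scaling, floor, filter, probe sets per gene, prior, array letter block, a random block of genotype and letter (chosen after the data were seen), a Y-linked covariate and the arrays included. Trp53, Ripk1, Naip1, Bnip3l and the Bcl2a1 genes are not analysed here.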

Additional observations from a re-analysis of the deposited data

Results flagged for a closer look

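In 4 of the 63 member and list genes tested (6.35%), none of them a member, every knockout array of 1 tissue lay above every wild-type array while the other tissue showed the opposite order. Over all probe sets tested the share was 3.54%, so the 4 are given as values only. For Bcl2l12 the knockout effect was lower in spleen than in lymph node by -2.06 (SE 0.58, unadjusted p = 0.00896), from -1.04 in spleen and 1.02 in lymph node. For Foxo1 it was higher in spleen by 1.73 (SE 0.67, unadjusted p = 0.0369), from 0.90 and -0.83. For Zmat3, a p53 target, it was -1.25 (SE 0.56, unadjusted p = 0.0586), from -0.72 and 0.53, and for Casp9, the caspase of the apoptosome, -0.39 (SE 0.44, unadjusted p = 0.402), from -0.24 and 0.15. None passed the limma test of the difference between tissues over all probe sets (adjusted p = 0.9998 each).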

How the results depend on the processing

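No member representative, nor Bid 1448560_at or Bcl2l11 1456006_at, passed under any alternative run, in any of the 5 comparisons. Over all probe sets, 2 passed in spleen, 3 in lymph node, 3 in the average and 0 in the other comparisons. By alternative the count in the average was 5 with no floor, 6 with the floor added to each signal, 5 with a floor at the 40th percentile, 5 with the stricter filter and 11 with a trended robust prior. In spleen it was 4 with the floor added, 4 with the stricter filter and 4 with the robust prior. Between tissues it was 65 with the robust prior and 1 with a gene's probe sets averaged. With 1 probe set per gene, and with a gene's probe sets averaged, it was 0 in spleen, lymph node and the average (973, 391 and 924, and 857, 322 and 860, at an unadjusted p under 0.05). Without both knockout A arrays it was 0 in spleen and in lymph node (2226 and 794 at an unadjusted p under 0.05). Leaving out each array in turn gave 2 to 2 in spleen, 1 to 3 in lymph node, 2 to 7 in the average, 0 to 0 for the difference between tissues in the knockout effect and 0 to 2 for spleen against lymph node. The cause of these shifts was not tested.

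Differences near 0 turned sign under some settings. Bcl2l1 in spleen was -0.10 with the Y-linked covariate. Without both knockout A arrays Mcl1 in spleen was 0.029, and in lymph node Bcl2l1 was 0.34, Bcl2l11 0.040, Bak1 0.059 and Pmaip1 0.23. With each array left out in turn, the spleen difference ran from -0.084 to 0.51 for Bcl2l1, from -0.27 to 0.029 for Mcl1, from -0.71 to 0.18 for Bak1 and from -0.37 to 0.024 for Pmaip1. The lymph node difference ran from -0.47 to 0.34 for Bcl2l1, from -0.46 to 0.040 for Bcl2l11, from -0.42 to 0.059 for Bak1, from -0.57 to 0.23 for Pmaip1 and from -0.017 to 0.57 for Bad. With the array letter as a replicate block the adjusted p was 0.441 for Bid and 0.529 for Bcl2 in spleen, 0.437 for Bid in the average and 0.252 for Bid 1448560_at in spleen, and it changed no call. Deviations of same-lettered arrays correlated at 0.05 to 0.29 between groups, with 0.29 between the knockout tissues and 0.068 between the wild-type tissues, and the labels do not say what the letters mark. Chosen after the data were seen, a fit with genotype and letter as a random replicate block (correlation 0.18) gave an adjusted p of 0.794 for Bid, 0.486 for Bid 1448560_at and 0.928 for Bcl2 in the average, and changed no call.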

Other observations

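Array B was above array A in all 4 groups in 4 of the 25 tested member probe sets, against 12.5% of all probe sets tested. These were Bcl2l1 1426191_a_at and Mcl1 1437527_x_at, 1456243_x_at and 1416881_at. With the 3 that were higher on array A in every group, 7 of 25 followed the letter, and 18 did not.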
